A study of Mus musculus with 18 samples.

Results

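Repair junctions of RAG breaks were compared between G2-arrested and G1-arrested cells that lack DNA-PKcs. The comparison used 6 libraries, chosen by the genotype and cell cycle phase in their labels, out of 18 in the series and out of 12 that record coding joins. The cells were v-abl transformed B cells from mice of strain 129, early B lineage cells kept growing by the Abl kinase of a virus, with a stably integrated pMX-INV recombination substrate. All 6 libraries carried the genotype DNA-PKcs -/-. The DNA-PKcs -/- group without a CtIP allele in its label gave 1 G1 library and 2 G2 libraries, and the CtIP A/A DNA-PKcs -/- group, called the double mutant here, also gave 1 and 2. G1 cells received the Abl inhibitor STI571 at 3 µM for 48 or 72 h (the labels do not say which applies to which library). G2 cells received STI571 at 3 µM for 24 h and then the CDK1 inhibitor RO3306 at 10 µM for 48 h, so time in culture and drug differ along with phase. Nothing in the labels says that libraries came from separate cultures or cell lines. The p-values therefore measure only how far these samples spread, and that spread may be technical. Genotype cannot be told apart from cell line.

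RAG cuts DNA between a coding segment and its recombination signal, a heptamer and a nonamer, and leaves the coding end as a sealed hairpin. In classical non-homologous end joining, DNA-PKcs activates the nuclease Artemis to open that hairpin, and the Ku and ligase IV complexes then join the ends. Without DNA-PKcs many coding ends stay unjoined, and those that are joined tend to lose bases. CtIP promotes resection of broken ends, and resection is more active after S phase than in G1.

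HTGTS, high-throughput genome translocation sequencing, starts from a fixed primer beside 1 break, the bait, and records the sequence joined to it, the prey. The 6 libraries held 25165 junctions, of which 6028 had their prey on the substrate. For DNA-PKcs -/- the G1 library held 5042 junctions and the G2 libraries 3663 and 2381. For the double mutant the G1 library held 7068 and the G2 libraries 4170 and 2841. Coding joins, in which the prey lies within 1000 bp of the partner coding end on the strand of the main peak, numbered 5016 in all. They numbered 1141 in G1 and 702 and 509 in G2 for DNA-PKcs -/-, and 1560 in G1 and 378 and 726 in G2 for the double mutant. The first G2 replicates were sequenced in run 1, and the second G2 replicates and both G1 libraries in run 2. With 1 G1 and 2 G2 libraries in each of 2 genotypes there are 9 arrangements of the labels, so the smallest p of the exact permutation test is 0.111 and no difference between these phases could pass 0.05. The lowest p of the exact permutation test was 0.356 after Benjamini-Hochberg adjustment across 16 measures.

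The Jκ segments of the light chain locus are among the natural RAG targets that recur as prey in these libraries. Their borders show what a coding end looks like. The reference sequence of each border is given 5′ to 3′ on the plus strand of GRCm38.p6 (RefSeq), with the heptamer in capitals, the signal side before it and the J coding sequence after it.
Igkj1, chr6:70722523-70722582: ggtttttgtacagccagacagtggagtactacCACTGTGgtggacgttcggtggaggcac
Igkj2, chr6:70722877-70722936: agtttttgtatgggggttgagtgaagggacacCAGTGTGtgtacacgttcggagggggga
Igkj3, chr6:70723184-70723243: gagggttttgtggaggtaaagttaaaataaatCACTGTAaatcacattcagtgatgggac
Igkj4, chr6:70723509-70723568: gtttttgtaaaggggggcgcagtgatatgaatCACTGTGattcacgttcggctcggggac
Igkj5, chr6:70723847-70723906: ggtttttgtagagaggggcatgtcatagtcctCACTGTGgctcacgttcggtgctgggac
The heptamer CACTGTG of Igkj1, Igkj4 and Igkj5 is also the heptamer on the partner side of the substrate, at substrate positions 2806 to 2812. Igkj2 has CAGTGTG and Igkj3 has CACTGTA.

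Coding joins lost fewer bases at the partner end in all 4 G2 libraries than in the G1 library of the same genotype. Deletion was counted from the most frequent prey position over the 12 libraries (2811) and the most frequent bait end (1947). In DNA-PKcs -/- cells, the share of coding joins with over 20 bp lost at the partner was 48.5% in G1 and 41.5% and 40.3% in G2. Double mutant cells had 53.3% in G1 and 37.3% and 30.6% in G2. The G2 values of each genotype lay below its G1 value, with G2 means of 40.9% ± 0.833 (SD, n = 2) and 33.9% ± 4.75 (SD, n = 2). The mean difference, G2 minus G1, was −13.5 points (p = 0.111, exact permutation, the smallest p possible). It was −19.4 points in the double mutant and −7.60 points in DNA-PKcs -/-. The double mutant difference minus that of DNA-PKcs -/- was −11.8 points (p = 0.667, exact permutation).

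The median partner deletion gave the same order. It was 19 bp in G1 and 17 bp in both G2 libraries for DNA-PKcs -/-, and 23 bp in G1 and 16 bp in both G2 libraries for the double mutant. The difference averaged −4.50 bp (p = 0.111, exact permutation) and was −2 bp in DNA-PKcs -/- and −7 bp in the double mutant.

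The lower G2 values lay mostly in deletions of 51 to 200 bp. For DNA-PKcs -/- this class held 16.7% of coding joins in G1 and 13.5% and 4.91% in G2. Double mutant libraries had 19.5% in G1 and 9.52% and 5.37% in G2. Both run 2 libraries of G2 were the lowest, near 5%, and all 4 G2 values lay below both G1 values (mean difference −9.78 points, p = 0.111, exact permutation). In the class of 21 to 50 bp, G2 was lower in 3 of 4 libraries (26.97% against 31.6% on average, p = 0.333, exact permutation). Deletions of 1 to 10 bp made up 21.2% of joins in G2 and 16.6% in G1, and deletions of 11 to 20 bp made up 28.4% and 22.5%. Both of these shorter classes were higher in 4 of 4 G2 libraries.

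The longest partner deletions went the other way. Those over 200 bp formed 1.05% of coding joins in DNA-PKcs -/- G1 (12 of 1141) and 1.57% and 2.36% in G2 (11 of 702 and 12 of 509). The double mutant had 1.41% in G1 (22 of 1560) and 2.38% and 2.07% in G2 (9 of 378 and 15 of 726). All 4 G2 values were higher, by 0.862 points on average (p = 0.111, exact permutation), but the 95% Wilson intervals of G1 and G2 overlapped in both genotypes. With the threshold at 100 bp the difference was −1.42 points, so its direction depends on the length chosen.

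**Figure D1:**
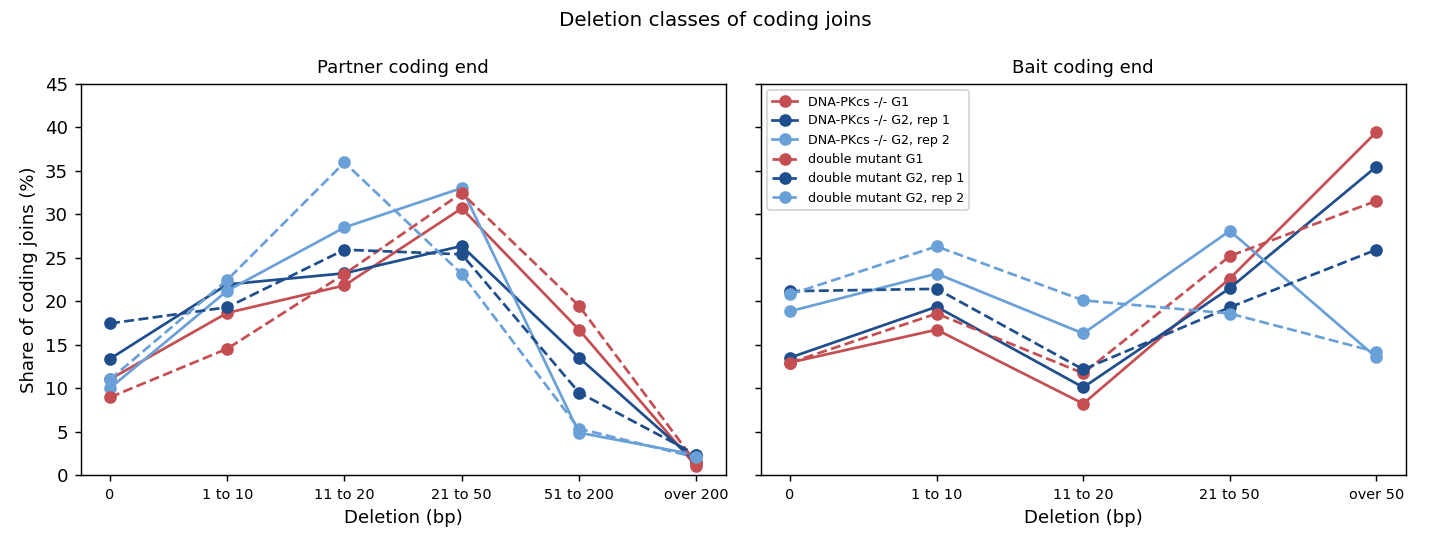
Share of coding joins (%, vertical axis) by deletion class (bp, horizontal axis) at the partner coding end (left) and the bait coding end (right), 1 line per library. The bait panel ends with deletions over 50 bp, of which the longest was 145 bp. Red lines are G1, dark blue lines are the first and light blue lines the second G2 replicate, solid for DNA-PKcs -/- and dashed for the double mutant. At the partner end, G2 libraries sit at or below 13.5% in the class of 51 to 200 bp and G1 libraries at 16.7% and 19.5%.

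The bait end, on the primer side of the break, also had shorter deletions in G2, with a wider spread between G2 replicates. For DNA-PKcs -/-, joins with over 20 bp lost at the bait formed 62.1% in G1 and 57.0% and 41.7% in G2. For the double mutant they made up 56.7% in G1 and 45.2% and 32.8% in G2. The G2 value of DNA-PKcs -/- in run 1 lay above the double mutant G1 value, so over both genotypes the phases overlapped. Within each genotype both G2 values were lower (mean difference −15.2 points, p = 0.222, exact permutation). In both genotypes the run 1 library was nearer to G1, and within run 2 alone the difference was −22.2 points. The second G2 replicates, in run 2, also differed from the G1 libraries in local clusters of genome junctions, described below. Whether sequencing run or another difference between replicates has a part in the spread was not tested. The median bait deletion was 32 bp in G1 and 27 and 16 bp in G2 for DNA-PKcs -/-, and 26 bp in G1 and 18 and 12.5 bp in G2 for the double mutant (mean difference −10.6 bp, p = 0.222, exact permutation). The primer sets a limit on what can be seen here: bait bases on the read and the deletion summed to a median of 175 bp, and the longest bait deletion recorded was 145 bp.

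Loss at the 2 ends went together within joins. Joins with over 20 bp lost at both ends made up 38.5% in G1 and 31.8% and 21.2% in G2 for DNA-PKcs -/-. For the double mutant they made up 37.7% in G1 and 23.8% and 14.2% in G2. All 4 G2 values lay below both G1 values (mean difference −15.3 points, p = 0.111, exact permutation). Joins with neither end past 20 bp were the counterpart, at 28.0% and 27.6% in G1 and between 33.3% and 50.8% in G2. Joins with only 1 end past 20 bp hardly differed on average, at 14.7% in G2 and 12.8% in G1 for the partner end alone and 21.4% and 21.3% for the bait end alone. In every library, joins with over 20 bp lost at the bait were the more likely to lose over 20 bp at the partner. In the double mutant G1 library 66.4% of such joins did so, against 36.1% of the others, and in its G2 libraries the shares were 52.6% against 24.6% and 43.3% against 24.4%.

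**Figure D2:**
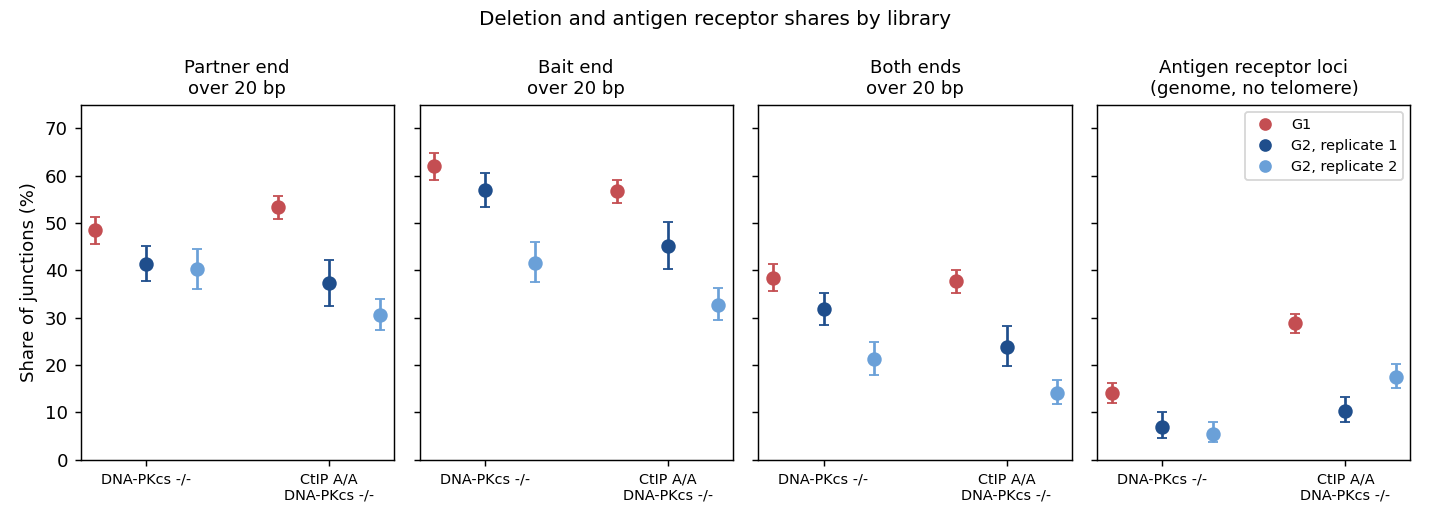
Shares (%) per library of coding joins with over 20 bp lost at the partner end, the bait end or both, and of antigen receptor junctions among genome junctions without telomere repeat, with 95% Wilson intervals for counting error only. Red points are G1, dark and light blue points the first and second G2 replicates. Within each genotype every G2 point lies below the G1 point in all 4 panels.

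Single positions show the same joins base by base. The 5 most used prey positions of these coding joins were 2829, 2811, 2824, 2828 and 2825. Position 2829, 16 bp past the heptamer border, took 3.59% of coding joins in G1 and 3.70% and 5.30% in G2 for DNA-PKcs -/-, and 4.42% in G1 and 5.29% and 7.02% in G2 for the double mutant. Position 2811, the zero point of the deletions, took 3.16% in G1 and 4.27% and 4.13% in G2 for DNA-PKcs -/-, and 3.01% in G1 and 3.97% and 3.31% in G2 for the double mutant. Both positions held a higher share in 4 of 4 G2 libraries, but the other listed positions were mixed. Position 2828 took 2.80% in G1 and 2.42% and 2.75% in G2 for DNA-PKcs -/-, so both G2 values were lower. For the double mutant it took 2.56% in G1 and 2.65% and 3.86% in G2, both higher. Position 2824 was lower only in the first DNA-PKcs -/- G2 library (1.85% against 2.63% in G1). Position 2825 was lower only in the first double mutant G2 library. The stretch from 2844 to 2858, chosen after its values were seen, held 18.6% and 19.4% in G1 and 12.95% to 16.1% in G2. On the bait side the most used ends were 1941, 1951, 1942, 1955 and 1954. Bait end 1941, inside the bait heptamer, took 2.54% and 2.44% in G1 and between 2.71% and 4.76% in G2.

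Whether the ends were joined directly or over shared bases did not clearly separate the phases. Direct joins, with neither shared nor added bases, made up 33.7% in G1 and 34.3% and 31.6% in G2 for DNA-PKcs -/-. For the double mutant they made up 37.3% in G1 and 29.4% and 34.0% in G2 (mean difference −3.14 points, p = 0.333, exact permutation). Microhomology, bases that both ends share at the junction, was found in 42.8% of G1 joins and 44.4% and 51.7% of G2 joins of DNA-PKcs -/-. The double mutant had it in 42.5% in G1 and 50.3% and 33.6% in G2, so its G2 libraries lay on both sides of G1. Microhomology of 4 bp or more was higher in 4 of 4 G2 libraries, but in the second double mutant G2 library it was 6.06% against 6.03% in G1 (mean difference 1.83 points, p = 0.444, exact permutation). Coding joins as counted here include joins onto the inverted bait segment, of which 69.1% to 87.8% had microhomology. Among joins onto the partner coding side alone, microhomology of 4 bp or more made up 3.74% in G2 and 3.28% in G1, a difference of 0.463 points.

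Inserted bases were lower in G2 in one genotype and higher in the other. They were present in 23.6% of G1 joins and 21.2% and 16.7% of G2 joins of DNA-PKcs -/-, and in 20.2% of G1 joins and 20.4% and 32.4% of G2 joins of the double mutant. The value of 32.4% stands apart from the other 5 libraries, and without that library the mean difference of 0.782 points became −2.22. Inserts over 3 bp were higher in 4 of 4 G2 libraries, each above both G1 values. They made up 4.29% in G1 and 5.70% and 5.30% in G2 for DNA-PKcs -/-, and 3.97% in G1 and 4.76% and 7.44% in G2 for the double mutant (mean difference 1.67 points, p = 0.333, exact permutation). The median insert was 2 bp in all 6 libraries, and G and C made up 62.5% to 67.2% of inserted bases. Palindromic inserts of 3 bp or more, the trace of a hairpin opened off its tip, were rare. In DNA-PKcs -/- cells they made up 0.263% in G1 (3 joins) and 0.142% and 0% in G2 (1 and 0 joins). Double mutant libraries had 0.192% in G1 (3 joins) and 0.265% and 0.138% in G2 (1 join each), so their G2 values lay on both sides of G1.

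The letters at the junctions were short. The most frequent shared sequences of 2 bp or more were CC (113 joins), GC (51) and TG (52), ranked by mean share, and the most frequent inserts were G (159), C (147) and A (81). Structure went with deletion in each library. Joins with over 20 bp lost at the partner had microhomology in 47.2% of cases in double mutant G1 and in 57.4% and 44.1% in its G2 libraries. Joins with less loss had it in 37.1%, 46.0% and 29.0%. Inserts were the reverse, at 11.1% against 30.6% in double mutant G1. In DNA-PKcs -/- G1 they were found in 15.9% of joins with over 20 bp lost and in 30.8% of the rest.

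**Figure D3:**
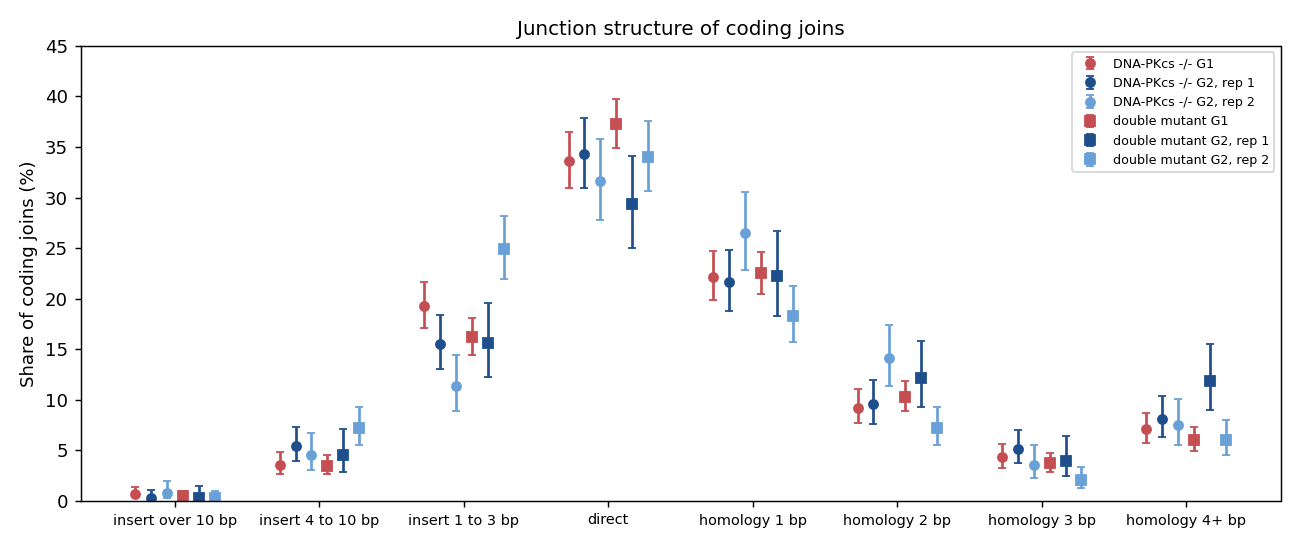
Share of coding joins (%) by junction structure, from inserts over 10 bp through direct joins to microhomology of 4 bp or more, per library with 95% Wilson intervals for counting error only. Circles are DNA-PKcs -/- and squares the double mutant, red for G1 and blue for G2. G1 and G2 points are mixed in most classes, and inserts of 1 to 3 bp reach 24.9% in the second double mutant G2 library.

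With every line counted, most junctions of these cells left the substrate. Prey on the substrate made up 27.4% of junctions in G1 and 23.2% and 23.6% in G2 for DNA-PKcs -/-, and 26.2% in G1 and 10.98% and 32.4% in G2 for the double mutant. The double mutant G2 libraries lay on both sides of G1 (mean difference −4.31 points, p = 0.778, exact permutation). Telomere lines that share a bait end and its following bases, described next, weigh on this share. With such lines merged into events and all other lines kept, it averaged 49.2% in G2 and 49.4% in G1, a difference of −0.205 points. With telomere repeats left out of the total it averaged 56.9% in G2 and 53.1% in G1. Of substrate junctions, coding joins took 82.4% in G1 and 82.6% and 90.7% in G2 for DNA-PKcs -/-, and 84.1% in G1 and 82.5% and 78.9% in G2 for the double mutant. Prey on the signal side of the partner was recovered in 55 junctions of DNA-PKcs -/- G1 and in 5 and 0 of G2. Double mutant counts were 80 for G1, then 7 and 77 for G2, so the second G2 library, at 2.71% of junctions, was the highest of the 6.

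Telomere repeats, the TTAGGG arrays that cap chromosomes, were the most common prey. A junction counted as telomere repeat with at least 3 exact units in its prey. For DNA-PKcs -/- such junctions made up 52.2% in G1 and 67.6% and 58.1% in G2. For the double mutant they made up 46.1% in G1 and 76.7% and 38.4% in G2. Both run 1 libraries were the highest, and the lowest of all was the second double mutant G2 library. The mean difference of 11.03 points (p = 0.667, exact permutation) became −0.934 points within run 2, so the direction depended on the run 1 libraries. Lines that shared a bait end and its 12 following bases, give or take 2, were also counted once as events. The events numbered 185 in G1 and 226 and 131 in G2 for DNA-PKcs -/-, and 266 in G1 and 262 and 93 in G2 for the double mutant, with 10.6 to 14.2 lines each. Their share of distinct junctions was 7.13% in G1 and 16.0% and 11.6% in G2, and 6.53% in G1 and 21.2% and 5.04% in G2. The repeat read into the C-rich strand in 99.4% to 99.9% of lines. Counted over every line, telomere joins were more often direct in 4 of 4 G2 libraries (32.9% against 21.9% on average). They less often had microhomology (30.1% against 41.1%), each difference with p = 0.222 in the exact permutation test. These shares were not computed over events, and the 3 most used bait ends held 22.3% to 68.3% of telomere lines per library.

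**Figure D4:**
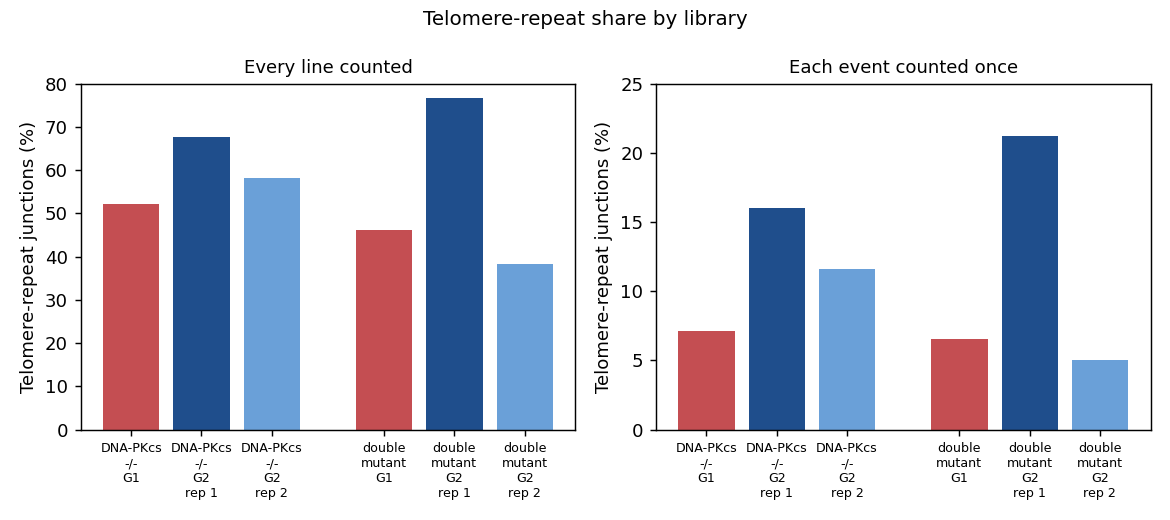
Share of telomere-repeat junctions (%) per library, with every line counted (left) and with each telomere event counted once and all other lines kept (right). Red bars are G1, dark blue bars the first and light blue bars the second G2 replicate. In both panels the first G2 replicate is the highest of its genotype, and the second double mutant G2 library, at 38.4% and 5.04%, lies below its G1 library.

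Shorter telomere-like sequence was also frequent among the remaining prey. Prey with 1 or 2 exact units made up 37.7% of genome junctions without telomere repeat in DNA-PKcs -/- G1 and 33.3% and 39.4% in G2. The double mutant had 20.2% in G1 and 34.4% and 21.1% in G2. Some of it aligned inside a chromosome, at an interstitial telomere-like array on chromosome 6, with lines from all 6 libraries. Whether these lines record joins at that array or short telomere prey aligned there was not tested. The reference there (GRCm38.p6, RefSeq, plus strand, 5′ to 3′), with exact telomere units in capitals, reads as follows.
chr6:53084330-53084389: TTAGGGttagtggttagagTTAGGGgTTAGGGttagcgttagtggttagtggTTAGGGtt
All 58 junctions in that megabase bin carried 1 or 2 units and all were on the minus strand. Of genome junctions without telomere repeat, they made up 2.34% in DNA-PKcs -/- G1 (24 junctions) and 1.19% and 2.06% in G2 (4 and 9). Double mutant libraries had 0.512% in G1 (10 junctions) and 1.75% and 0.241% in G2 (9 and 2), on both sides of G1.

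Antigen receptor loci took a smaller share of the genome junctions in G2. Of genome junctions without telomere repeat, they held 14.02% in G1 (144 of 1027) and 6.85% and 5.49% in G2 (23 of 336 and 24 of 437) for DNA-PKcs -/-. Double mutant libraries held 28.8% in G1 (562 of 1952) and 10.3% and 17.6% in G2 (53 of 514 and 146 of 831). Both G2 values lay below G1 in each genotype, although the second double mutant G2 library lay above the DNA-PKcs -/- G1 library. The mean difference was −11.4 points (p = 0.111, exact permutation). It was −4.55 points with telomere repeats kept in the denominator, and −21.2 points without C- or T-rich prey and prey with 1 or 2 telomere units. With 5 local clusters, described below, left out as well, it was −16.9 points (24.1% in G2 against 41.0% in G1 on average).

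The light chain locus Igk (chromosome 6, 67555497 to 70726966) held 867 of these junctions. It took 12.8% in G1 and 5.36% and 4.58% in G2 for DNA-PKcs -/-, and 26.1% in G1 and 9.53% and 14.3% in G2 for the double mutant. Most of these junctions lay away from the Jκ borders. Those away from them made up 9.74% in G1 and 5.36% and 4.12% in G2 for DNA-PKcs -/-. For the double mutant they made up 16.7% in G1 and 7.39% and 8.90% in G2. Igh, the heavy chain locus (chromosome 12, 113254830 to 116010093), had 63, of which 19 came from the second double mutant G2 library. Igh did not follow Igk, with 0.389% in G1 and 0.298% and 0.915% in G2 for DNA-PKcs -/- and 1.18% in G1 and 0.778% and 2.29% in G2 for the double mutant. Igl held 31 junctions, of which 28 were in G1 and 3 in G2, and Tcrg held 15, Tcra/Tcrd 3 and Tcrb 1. Among the translocation partner genes looked up, Notch1 had 1 junction in each G1 library and none in G2, and Pax5, Myc, Pvt1, Ccnd1, Ccnd2, Bcl6 and Mycn had 0 at this depth.

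At the Jκ borders printed above, joins onto the coding side numbered 24 in G1 and 0 and 2 in G2 for DNA-PKcs -/-, and 144 in G1 and 11 and 35 in G2 for the double mutant. As a share of genome junctions without telomere repeat this was 2.34% in G1 and 0% and 0.458% in G2, and 7.38% in G1 and 2.14% and 4.21% in G2. Joins onto the signal side numbered 7 in G1 and 0 and 0 in G2 for DNA-PKcs -/-, and 40 in G1 and 0 and 10 in G2 for the double mutant. Igkj1, nearest to the Vκ segments, took 131 of the coding-side joins, Igkj2 took 48, Igkj4 took 22 and Igkj5 took 15. Igkj3, with the heptamer CACTGTA, took 0. J coding ends were deleted by over 20 bp in 47 of 144 double mutant G1 joins (32.6%, 95% Wilson interval 25.5 to 40.7). In the double mutant G2 libraries this held for 2 of 11 (18.2%, 5.14 to 47.7) and 4 of 35 (11.4%, 4.54 to 26.0). Among DNA-PKcs -/- libraries it held for 5 of 24 joins in G1 (20.8%, 9.24 to 40.5) and 1 of 2 in the second G2 library. With the threshold at 10 bp the double mutant shares were 61.1% in G1 and 54.5% and 51.4% in G2, and at both thresholds the intervals of G1 and G2 overlapped.

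The bait ends of these joins had shorter deletions in G2 as well. Over all antigen receptor junctions, the median bait deletion was 46 bp in G1 and 26 and 13 bp in G2 for DNA-PKcs -/-, and 20.5 bp in G1 and 17 and 10 bp in G2 for the double mutant (p = 0.111, exact permutation). The DNA-PKcs -/- G2 values rest on 23 and 24 junctions.

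**Figure D5:**
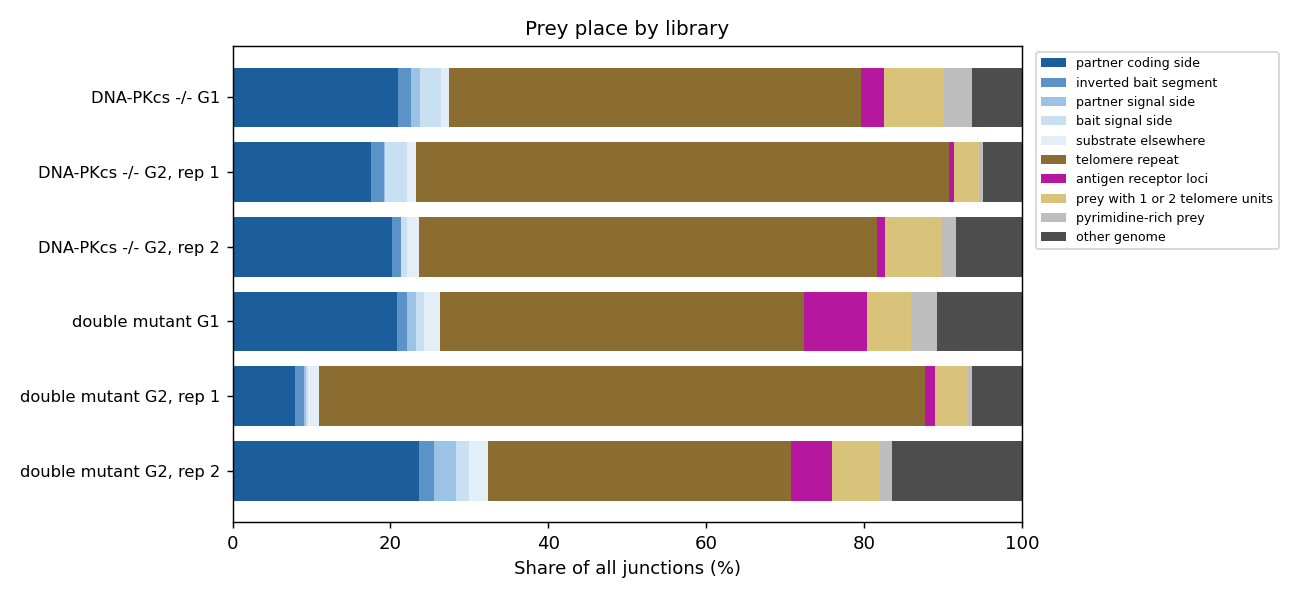
Share of all junctions (%, horizontal axis) by place of the prey, 1 stacked bar per library. Blues are substrate classes, brown is telomere repeat, magenta is antigen receptor loci and greys and tan are other genome prey. Telomere repeat fills 38.4% to 76.7% of each bar, and the magenta segment is narrower in the G2 bars than in the G1 bar of the same genotype.

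A class of prey made almost wholly of C and T was also less frequent in G2. Prey over 90% C or T made up 17.2% of genome junctions without telomere repeat in DNA-PKcs -/- G1 and 5.95% and 9.38% in G2. Double mutant libraries had 12.1% in G1 and 3.70% and 5.17% in G2. All 4 G2 values lay below both G1 values. The shortest stretch of bait ends that held 90% of them over the 6 libraries ran from substrate position 2046 to 2083. Per library it held 89.5% to 95.1% of them, against 11% to 23.8% of prey that was neither telomere-like, C- or T-rich nor in an antigen receptor locus. Whether these lines record repair joins was not tested, so their shares are shares of deposited lines. Without this class alone the phase difference of antigen receptor loci was −14.2 points.

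Genome junctions outside telomere repeats and antigen receptor loci, called dispersed here, differed in structure by an amount that depended on which prey was kept. Inserted bases were found in 48.5% of them in G1 and 34.2% and 35.4% in G2 for DNA-PKcs -/-, and in 36.7% in G1 and 30.2% and 30.7% in G2 for the double mutant. All 4 G2 values were below both G1 values (mean difference −9.99 points, p = 0.111, exact permutation). The difference was −3.96 points without C- or T-rich prey and −3.16 points without prey with 1 or 2 telomere units as well (p = 0.333, exact permutation). Without both classes G2 was lower in 3 of 4 libraries. The second double mutant G2 library lay above G1 (16.7% against 14.6%). Microhomology was higher in 4 of 4 G2 libraries (50.7% against 42.1% on average, p = 0.222, exact permutation). That difference of 8.67 points became 3.89 without C- or T-rich prey and 6.55 without both classes (72.7% against 66.2%, p = 0.333, exact permutation). Without both classes G2 was higher in 3 of 4 libraries. The second double mutant G2 library lay below G1 (68.1% against 71.9%). The difference in microhomology was 3.32 points (p = 0.556, exact permutation) when 5 local clusters, described next, were left out as well. Bait deletions over 20 bp made up 84.4% in G1 and 75.1% and 38.7% in G2 for DNA-PKcs -/-, and 59.7% in G1 and 53.4% and 48.2% in G2 for the double mutant. The mean difference was −18.2 points (p = 0.333, exact permutation). It was −27.5 points within DNA-PKcs -/- and −8.94 within the double mutant, and −9.12 over both without the second DNA-PKcs -/- G2 library. Without both prey classes it was −7.69 points, and −2.24 (p = 0.889, exact permutation) without the 5 clusters as well. In the prey left without both classes, the first DNA-PKcs -/- G2 library lay above G1 (71.8% against 68.0%).

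Some of the dispersed junctions sat in local clusters of single libraries or a pair of libraries. A bin on chromosome 2 (167000001 to 168000000), with its most used position in Tmem189, held 9.25% of genome junctions without telomere repeat in DNA-PKcs -/- G1, 29.2% in the first and 0% in the second G2 library. A bin on chromosome 3 (107000001 to 108000000) held 21.9% in the second double mutant G2 library and at most 0.0512% in the others. The second DNA-PKcs -/- G2 library had 12.8% in a bin on chromosome 7 (101000001 to 102000000), with its most used position in Pde2a and Gm45837, and 11.4% in one on chromosome 4 (133000001 to 134000000), with it in Ahdc1. A bin on chromosome 5 (140000001 to 141000000) held 5.49% of that library. The most used positions in the bins on chromosomes 2, 4 and 7 held 2, 1 and 2 junctions, so the genes there mark a place in a broad cluster and no single site. Replicates of 1 genotype and phase thus differed in which genome regions they joined. Of 4960 distinct genome junctions without telomere repeat, 80 were seen in 2 or more libraries.

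Whether the phase difference is particular to cells without DNA-PKcs was tested against the 6 coding-join libraries of wild type and CtIP A/A cells, which hold DNA-PKcs and carry the same 1 G1 and 2 G2 libraries per genotype. The test permutes phase labels in all 4 genotypes (81 arrangements, smallest p 0.0123), and its null is no phase difference in any genotype. Over 16 measures of all junctions and coding joins, none passed 0.05 after Benjamini-Hochberg adjustment, and 2 fell below 0.05 before it (exact permutation). Over the 4 measures of dispersed junctions, adjusted separately, none passed and 1 fell below 0.05 before adjustment (exact permutation). Partner deletions over 20 bp were lower in G2 by similar amounts without and with DNA-PKcs (−13.5 and −9.33 points, difference −4.17, p = 0.654, exact permutation). For both ends over 20 bp the phase differences were −15.3 and −0.934 points (difference −14.4, p = 0.160, exact permutation). For antigen receptor loci they were −11.4 and −4.59 points (difference −6.76, p = 0.444, exact permutation). A p above the threshold does not show that the phase differences are alike.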

How the data were processed

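Per the labels' protocols, sonicated genomic DNA went through linear amplification from a biotinylated primer, nested PCR, BstBI digestion of germline substrate and MiSeq sequencing, and the alignment used mm10 plus the substrate as its own chromosome. Bowtie2 and mm10 are named in the submitters' processing notes. How junctions were called, filtered and deduplicated is not given in the sources used here. Deposited tables list 1 junction per line, with prey and bait base positions, read positions and read sequence, per the file headers, and no normalization. Depth, counted in junctions, ran from 2381 to 7068 per library. Reads from PCR with no molecular identifiers are not independent, so 95% Wilson intervals, and the share that a count of 0 allows (3 counts of the total), cover counting error only. Read length had a median of 204 to 237 bases, which limits the deletions that can be seen.

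Values were computed with pandas 2.3.3, numpy 2.4.6 and scipy 1.17.1 under Python 3.11.15, and figures were drawn with matplotlib 3.10.9. A deletion is the distance in bp from the zero point at each end, microhomology is the overlap of both alignments on the read, and an insert is the gap between them. Joins onto the inverted bait count as partner deletions of 0 bp. A palindromic insert holds at least 3 bp that are the reverse complement of the end beside it. G2 minus G1 was averaged with equal weight over the 2 CtIP genotypes and tested by two-sided exact permutation of phase labels within genotype, and checked on simulated data. P-values of the prey places, deletion classes, junction structures within places and prey classes are not adjusted. Sequencing run was read from the read names. Prey read from chromosome 6 was checked against GRCm38.p6, with 452 of 452 plus-strand prey equal to it. The loci, partner genes and recurrent megabase bins named follow a rule, as do the 5 most used positions at each end and the 3 most frequent insert and microhomology sequences. The bins on chromosomes 3 and 5, the C- or T-rich class and the stretch 2844 to 2858 were chosen after their values were seen. The members, measures and lists were chosen with earlier results of these data known.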

Additional observations from a re-analysis of the deposited data

Results flagged for a closer look

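The difference between G2 and G1 in the share of coding joins among substrate junctions had opposite signs in the 2 genotypes. Both G2 libraries lay above G1 in DNA-PKcs -/- and both lay below it in the double mutant, and the phase difference of the double mutant minus that of DNA-PKcs -/- was −7.59 points (p = 0.222, exact permutation). The same pattern held for inserted bases, with a difference between genotypes of 10.8 points, of which most came from the second double mutant G2 library.

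Partner deletions over 200 bp had a phase difference of 0.862 points without DNA-PKcs and −3.38 points with it. The difference between these was 4.24 points (p = 0.0123, the smallest possible, adjusted p = 0.0988, exact permutation). With DNA-PKcs the shares were 5.91% in wild-type G1 (54 of 914) and 1.24% and 1.15% in G2, and 2.20% in CtIP A/A G1 (10 of 454) and 0% and 0.302% in G2. Without DNA-PKcs the G1 shares were 1.05% and 1.41%, so a fall as large as that with DNA-PKcs was not possible there. Inserts over 3 bp had phase differences of 1.67 points without and −8.13 points with DNA-PKcs, a difference of 9.79 points (p = 0.0123, adjusted p = 0.0988, exact permutation). With DNA-PKcs they made up 34.1% in wild-type G1 and 24.2% and 24.1% in G2, and 31.7% in CtIP A/A G1 and 22.4% and 28.4% in G2. Without DNA-PKcs they made up only 4.29% and 3.97% in G1, so here too a fall as large was not possible.

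Dispersed genome junctions with bait deletions over 20 bp were less frequent in G2 without DNA-PKcs, by −18.2 points, and more frequent with it, by 35.1 points. The difference was −53.3 points (p = 0.037, adjusted p = 0.148, exact permutation). With DNA-PKcs the shares were 41.7% in wild-type G1 and 59.8% and 94.6% in G2, and 38.9% in CtIP A/A G1 and 76.0% and 71.2% in G2. The wild-type G2 shares rest on 107 and 93 junctions. The difference of −18.2 points was −27.5 within DNA-PKcs -/- and −8.94 within the double mutant. It was −7.69 without C- or T-rich prey and prey with 1 or 2 telomere units, and −2.24 (p = 0.889, exact permutation) without 5 local clusters as well.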

How the results depend on the processing

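Of 221 alternatives of the phase differences, 203 kept the direction and 18 reversed, and none could pass 0.05 by the number of arrangements. Of 205 alternatives of the difference of phase effects, which can pass it, 180 kept the direction and the side of an unadjusted 0.05, 16 reversed, 8 lost that side and 1 gained it. The lower G2 values of partner, bait and both-end deletions over 20 bp and of antigen receptor loci kept their direction in every alternative run, as did both medians. In each of these measures both G2 values of a genotype lay below its G1 value. Leaving out a library or keeping run 2 alone therefore could not reverse them, and only the other alternatives could. Leaving out each library gave −19.4 to −7.60 points for partner deletions, −19.1 to −11.4 for bait deletions, −18.7 to −12.0 for both ends, −14.9 to −7.85 for antigen receptor loci and −7 to −2 bp for the median partner deletion. Each genotype has 1 G1 library, so leaving that library out removes the genotype and gives the difference of the other genotype alone. Where a difference reversed, its cause was not tested. Within run 2 the substrate share differed by 1.13 points and the telomere share by −0.934, and without telomere repeats in the total the substrate share differed by 3.82. At 100 bp the longest partner deletions differed by −1.42 points. Leaving out each library moved the substrate share between −9.66 and 1.04, the coding-join share between −3.37 and 4.22, microhomology between −1.80 and 6.53, inserted bases between −4.61 and 6.18, palindromic inserts between −0.192 and 0.00884 and direct dispersed joins between −0.854 and 3.50 points. Direct dispersed joins differed by −3.39 points without C- or T-rich prey and prey with 1 or 2 telomere units, and by −0.204 without 5 local clusters as well.

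For the phase difference without minus with DNA-PKcs, where each G2 library in turn was left out, ranges that crossed 0 were −3.19 to 16.0 points for telomere repeats, −5.83 to 2.49 for microhomology, −2.57 to 0.352 for microhomology of 4 bp or more and −0.0311 to 0.279 for palindromic inserts. For dispersed junctions they were −0.118 to 4.24 (direct), −3.31 to 4.30 (microhomology) and −6.59 to 1.48 (inserts). Without C- or T-rich prey and prey with 1 or 2 telomere units these became −2.03, −5.48 and 7.51. The substrate share ran from −23.8 to −13.1 and once reached an unadjusted p of 0.037 (exact permutation). Inserts over 3 bp ran from 8.30 to 11.3 and were 8.22 with identical junctions counted once (p = 0.0988, exact permutation). Dispersed bait deletions over 20 bp ran from −62.4 to −44.2 and were −52.2 without those prey classes (p = 0.0741, exact permutation). The alternatives of this difference and of the dispersed junctions, the heptamer borders, the prey classes and the clusters were chosen after the data were seen. No paired analysis was possible because each genotype has 1 G1 library, so the phases share fewer than 2 replicate numbers.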
